A study of Bos taurus with 28 samples.

Results

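bta-miR-375 is 1 of the 132 miRNAs measured in bovine raw milk extracellular vesicles (EVs), and its values were taken from its row of the deposited table in all 28 libraries. The libraries came from skimmed milk of 4 dairy cows that the study enrolled as healthy. Milk samples were taken by hand at the evening and the morning milking over 4 days. Each library was made by small RNA sequencing of RNA from EVs pelleted by ultracentrifugation. Cow 3 and Cow 1 have 6 libraries each, Cow 4 and Cow 2 have 8 each, 14 libraries are from the evening and 14 from the morning, and no treatment was given. Cow 3 has no library of day 3 and Cow 1 none of day 2. The somatic cell count (SCC), the number of cells per mL of milk that is used to watch for udder inflammation, was recorded for each milking. Each cow contributes repeated milkings of the same animal, so p-values measure the spread between milkings and not between animals.

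miRNAs are short RNAs that lower the output of messenger RNAs they pair with, mainly through a short stretch near their 5′ end called the seed. In mouse and human, miR-375 is best known from pancreatic islets, where it restrains insulin secretion, and it is also found in the secretory epithelia of other organs. In the lactating udder the milk-secreting alveolar epithelium releases EVs into milk, alongside EVs from other cells. In RefSeq's annotation of the bovine assembly ARS-UCD2.0, the gene MIR375 lies between CRYBA2, a lens crystallin gene, and CFAP65, a gene of cilia and flagella. Only EVs were sequenced, so the cells that released miR-375 were not observed here.

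miR-375 was an abundant miRNA of the milk EVs and was measured well above the detection limit in every library. It had 877 to 4134 reads per library (median 1961), which was 0.693% to 2.02% of the reads of all 132 miRNAs (median 1.22%). On the deposited scale, the log2 of read counts scaled to a common library size (log2 CPM, counts per 1000000), it averaged 13.53 ± 0.40 (SD, n = 28), with a range of 12.76 to 14.64. By mean level it stood at place 17 of 132, and in single libraries between places 13 and 22. The miRNAs next above it in mean log2 CPM were miR-30d at 14.08, let-7g at 13.84 and miR-8549 at 13.69. Those next below it were miR-423-5p at 13.45, miR-320a at 13.31 and miR-125a at 13.24. Between the libraries of a cow, miR-375 had an SD of 0.24 log2 units, the median of this SD over all miRNAs being 0.49. Of these 6 neighbours, miR-30d and let-7g lay farther from miR-375 than the SD within cows of either miRNA, and the other 4 did not. With an SD within cows of 0.87, miR-8549 was more variable at nearly the same level. Counting error alone gave miR-375 an SD of 0.022 to 0.049 log2 units per library, a small part of the spread that was seen. Such limits cover counting error only, and not the spread that the other steps from milk to library can add. In EV pools, fewer EVs of a kind and fewer miRNA copies per EV cannot be told apart.

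The level of miR-375 depended on the cow, and Cow 1 stood apart from the other cows. In Cow 3 its log2 CPM was 13.36, 13.46 and 13.70 in the evenings of days 1, 2 and 4, and 13.49, 13.61 and 13.45 in the mornings of the same days. In Cow 4 the evenings of days 1 to 4 gave 13.04, 13.28, 13.35 and 13.22, and the mornings 12.76, 13.37, 13.58 and 13.12. In Cow 2 the evenings gave 13.32, 13.33, 13.48 and 13.47, and the mornings 13.21, 13.62, 13.75 and 13.10. Values in these 3 cows overlapped widely, and the lowest value of all was in Cow 4. In Cow 1 the evenings of days 1, 3 and 4 gave 13.95, 14.64 and 14.22, and the mornings 13.70, 14.29 and 13.87. The lowest Cow 1 library was exceeded only by the day 3 morning of Cow 2 and, by less than 0.01 log2 units, by the day 4 evening of Cow 3.

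**Figure D1:**
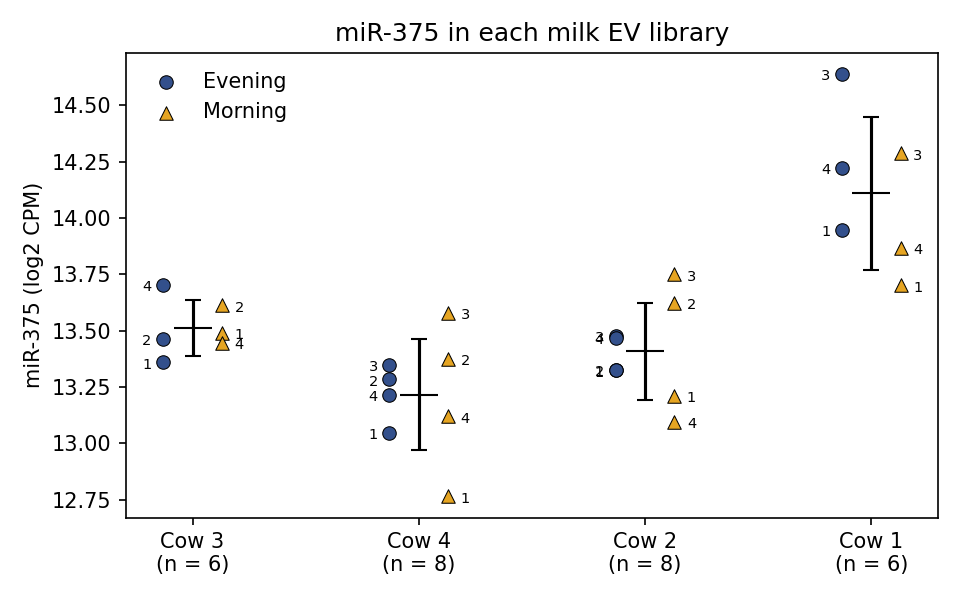
miR-375 in log2 CPM (y axis) in each of the 28 libraries, by cow (x axis). Circles are evening and triangles morning milkings, the small digit beside each is the collection day, and the bar with whiskers is the mean ± SD of the cow. In Cow 1, 5 of the 6 libraries lie above every library of the other cows, and both libraries of its day 3 are the highest of all.

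In linear terms, miR-375 averaged 11717 ± 1027 CPM (Cow 3, SD, n = 6), 9634 ± 1586 CPM (Cow 4, n = 8), 10983 ± 1650 CPM (Cow 2, n = 8) and 18099 ± 4414 CPM (Cow 1, n = 6). Among the cows, miR-375 differed in a moderated F test (limma, F = 15.83, adjusted p = 2.06e-05). The call itself is common in this table, since 62 of 132 miRNAs (47%) differed among cows, and miR-375 held place 13 in the order of their p-values. With the mean of both milkings of a day as 1 value, which treats the milkings of a cow and day as a pair, 30 miRNAs differed among cows and miR-375 was still one of them (adjusted p = 0.00545).

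Against Cow 1, miR-375 was lower in each of the other cows. In Cow 3 it was 0.60 log2 units lower than in Cow 1 (estimate -0.60, SE 0.14, 95% interval -0.89 to -0.31, adjusted p = 0.0027), a 1.51-fold lower level. In that comparison 30 of 132 miRNAs passed (22.7%), and 17 with the paired milkings averaged. In Cow 2 the estimate against Cow 1 was -0.70 (SE 0.13, 95% interval -0.97 to -0.43, adjusted p = 0.000294), or 1.63-fold lower. Here 13 miRNAs passed (9.85%), and 8 with the paired milkings averaged. In Cow 4 the estimate against Cow 1 was -0.89 (SE 0.13, 95% interval -1.17 to -0.62, adjusted p = 6.23e-06), or 1.86-fold lower. This comparison had the fewest calls, 7 of 132 (5.30%), and miR-375 had the third smallest p-value among them. In all 3 comparisons the call of miR-375 held with the paired milkings averaged (adjusted p = 0.0454 for Cow 3, 0.0158 for Cow 2 and 0.00261 for Cow 4). With the 14 morning libraries alone the direction was kept and the 3 calls were lost (estimates of -0.44, -0.53 and -0.74 for Cow 3, Cow 2 and Cow 4, adjusted p = 0.293, 0.283 and 0.129).

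A set of 3 miRNAs passed against Cow 1 in each of the 3 comparisons, which share the Cow 1 libraries, and all of them were lower in the other cows. They were miR-375, miR-885 and miR-10b. For miR-885 the estimates were -3.59 in Cow 3, -1.65 in Cow 4 and -1.27 in Cow 2. For miR-10b, listed here as a stromal miRNA, they were -2.62, -1.33 and -2.16 in the same order. miR-10b was scarce, at a mean of 3.68 log2 CPM (Cow 3), 4.97 (Cow 4), 4.14 (Cow 2) and 6.30 (Cow 1). A value of 3.55 stands for 0 reads, so its means in Cow 3 and Cow 2 lie near that floor and its estimates depend on it. miR-375 was far more abundant than miR-10b, with a mean of 13.51 ± 0.12 (Cow 3), 13.22 ± 0.25 (Cow 4), 13.41 ± 0.21 (Cow 2) and 14.11 ± 0.34 (Cow 1) (log2 CPM, SD).

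Cow 3, Cow 4 and Cow 2 could not be separated from each other by miR-375 at this depth of sampling. The estimate was 0.10 for Cow 3 minus Cow 2 (SE 0.13, 95% interval -0.17 to 0.38, adjusted p = 0.586), a comparison in which 40 miRNAs passed (30.3%). It was -0.19 for Cow 4 minus Cow 2 (SE 0.12, 95% interval -0.45 to 0.06, adjusted p = 0.265), where 25 passed (18.9%). For Cow 3 minus Cow 4 it was 0.30 (SE 0.13, 95% interval 0.02 to 0.57, adjusted p = 0.109), with 34 passing (25.8%), or 17 with the paired milkings averaged. That last difference passed when quantile normalization was used (0.28, adjusted p = 0.0460), when values were taken as shares of reads (0.58, adjusted p = 0.00347) and when session and day were added to the fit (0.38, adjusted p = 0.00835).

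The scaling of the libraries moved the differences from Cow 1 but not their direction. As a share of the reads of all 132 miRNAs, with no normalization factor, miR-375 was 1.32% ± 0.176 (Cow 3), 0.888% ± 0.153 (Cow 4), 1.14% ± 0.216 (Cow 2) and 1.66% ± 0.245 (Cow 1) (SD). The estimate for Cow 3 minus Cow 1 was then -0.32 (adjusted p = 0.173), and with library medians set equal it was -0.43 (adjusted p = 0.0593), so that call was lost under both. These scalings shifted the median estimate of all miRNAs in the same comparison from -0.06 on the deposited scale to 0.20 as shares and 0.11 with equal medians. Relative to that median, the estimate for Cow 3 minus Cow 1 was -0.54 on the deposited scale and -0.68 with quantile normalization. Equal medians and shares shift all miRNAs of a library together, so a value relative to the median cannot test them. The calls for Cow 2 and Cow 4 against Cow 1 passed with equal medians, as shares and with quantile normalization. Relative to the median of all miRNAs they were -0.63 for Cow 2 and -0.85 for Cow 4 on the deposited scale, and -0.65 and -0.92 with quantile normalization.

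**Figure D2:**
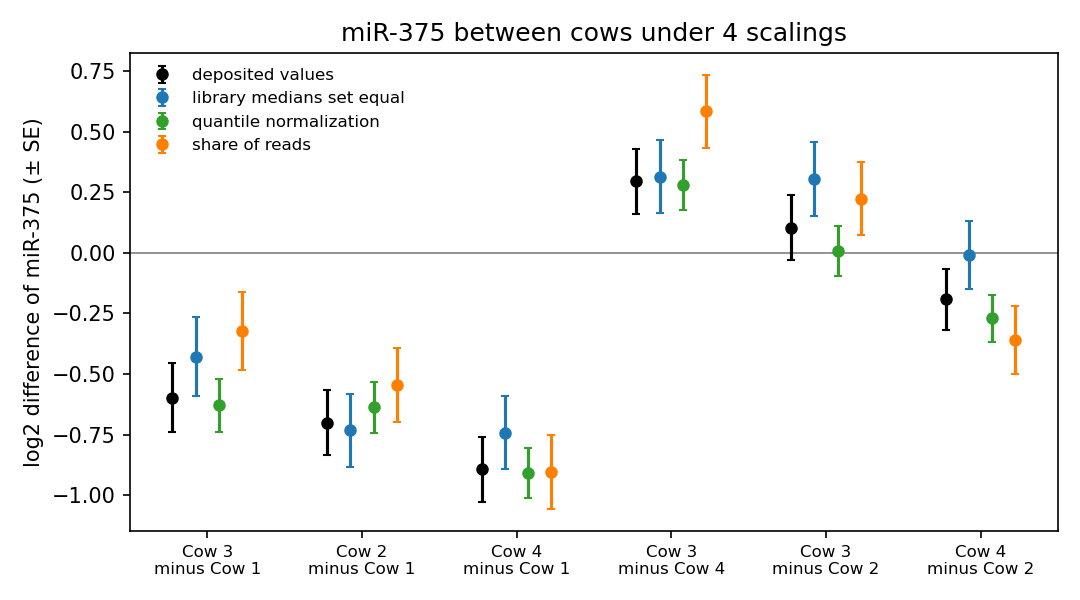
Estimated log2 differences of miR-375 between cows (y axis, ± SE from limma) for each pair of cows (x axis) under the deposited scale and 3 other scalings of the libraries. All estimates against Cow 1 are negative under each scaling, from -0.32 to -0.91, while Cow 4 minus Cow 2 comes near 0 (-0.01) with library medians set equal.

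As a way to read the level against another epithelial signal, miR-375 was set against the miR-200 family, 5 miRNAs that keep cells in the epithelial state (miR-200a, miR-200b, miR-200c, miR-141 and miR-429). The family was well represented, with means over all libraries from 9.17 log2 CPM for miR-429 to 15.35 for miR-200c. Against Cow 1, none of the 5 differed in Cow 3 or in Cow 4, and miR-200c alone was lower in Cow 2 (-0.36, adjusted p = 0.0102). The median of the 5 estimates was 0.05 for Cow 3, -0.10 for Cow 4 and 0.14 for Cow 2, against medians over all miRNAs of -0.06, -0.04 and -0.07 for the same cows. The log2 level of miR-375 minus the mean of the family was 1.05 ± 0.17 (Cow 3), 0.90 ± 0.36 (Cow 4), 0.92 ± 0.26 (Cow 2) and 1.73 ± 0.47 (Cow 1) (SD). This difference from the family ranged from 0.21 to 1.36 over the libraries of the other cows and from 1.18 to 2.39 in Cow 1, so the ranges overlapped. Against each single member, the mean difference was also highest in Cow 1. Whether Cow 1 milk held more EVs of epithelial origin was not tested.

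The other marker lists gave a mixed picture for the same comparisons. The lists were chosen with earlier results of these data known, and their counts are descriptions, to be read against the shares of all miRNAs that passed against Cow 1 (22.7% for Cow 3, 5.30% for Cow 4, 9.85% for Cow 2). Of the 8 miRNAs listed as abundant in milk (among them miR-148a and the let-7 members), 1 was higher (miR-30a-5p) and 1 lower (miR-21-5p) in Cow 3 than in Cow 1, 1 was higher in Cow 4 (miR-30a-5p), and none passed for Cow 2. Of 5 immune cell miRNAs, miR-181a and miR-181b were higher and miR-155 and miR-342 lower in Cow 3 than in Cow 1, and none of the 5 passed for Cow 4 or Cow 2. Of the 2 miR-183 cluster members, known from sensory and secretory epithelia, miR-183 was lower in Cow 3 (-0.61, adjusted p = 0.0256). Of 3 stromal miRNAs, miR-99a-5p was higher and miR-10b and miR-143 were lower in Cow 3 than in Cow 1, and for Cow 4 and Cow 2 miR-10b alone passed. None of 3 red blood cell miRNAs passed against Cow 1. miR-7, the other miRNA typical of islets in mouse and human, was at a mean of 7.01 log2 CPM (Cow 3), 6.52 (Cow 4), 7.54 (Cow 2) and 7.31 (Cow 1), and did not pass against Cow 1 in any cow.

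Split by source, 67.7% of the sum of squares of miR-375 lay between cows, 22.2% between days of a cow and 10.2% between both milkings of a day (3, 10 and 14 degrees of freedom). The medians of these shares over all miRNAs were 26.8%, 37.7% and 30.0%. By its share between cows miR-375 held place 13 of 132. Of its neighbours with a still smaller SD, miR-30d had 54.3% between cows and let-7g had 26.4%.

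Between evening and morning, miR-375 did not differ beyond the spread between milkings. It averaged 13.56 ± 0.43 log2 CPM in the evening and 13.49 ± 0.38 in the morning (SD, n = 14 each), and it ranged from 13.04 to 14.64 in the evening and from 12.76 to 14.29 in the morning. The estimate was 0.06 (SE 0.10, 95% interval -0.13 to 0.26, limma, adjusted p = 0.996), which as a ratio is 1.05 with an interval of 0.914 to 1.20. No miRNA passed this test (0 of 132, 0%), also not with limma-voom on the recovered reads. An unadjusted p under 0.05 was given to 2 miRNAs, miR-375 not among them. Over the 14 evening and morning pairs of the same cow and day, the evening value was higher in 8 and lower in 6, with a mean difference of 0.06 ± 0.25 (SD) and differences from -0.30 to 0.37. An exact permutation test of the signs of these 14 differences gave p = 0.344 (two-sided).

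The pairs of Cow 1 were the ones with a common direction. Its evening values exceeded its morning values by 0.25, 0.35 and 0.36 log2 units on days 1, 3 and 4. In the other cows the evening value was higher in 1 of 3 pairs in Cow 3, 2 of 4 in Cow 4 and 2 of 4 in Cow 2, with mean differences of -0.01, 0.01 and -0.02. Without Cow 1 the estimate over all sessions was -0.0043. The test of the difference between cows in the session effect did not pass (limma, F = 0.62, adjusted p = 0.969), and neither did any other miRNA (0 of 132, 0%), with 1 at an unadjusted p under 0.05 and none by limma-voom. The median absolute difference of miR-375 was 0.25 within an evening and morning pair, 0.24 between milkings on different days of 1 cow (72 pairs) and 0.38 between libraries of different cows (292 pairs). By this median, milkings of the same day were no closer in miR-375 than milkings of different days of the cow, although per degree of freedom the sum of squares between the days of a cow was larger than that between the milkings of a day.

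**Figure D3:**
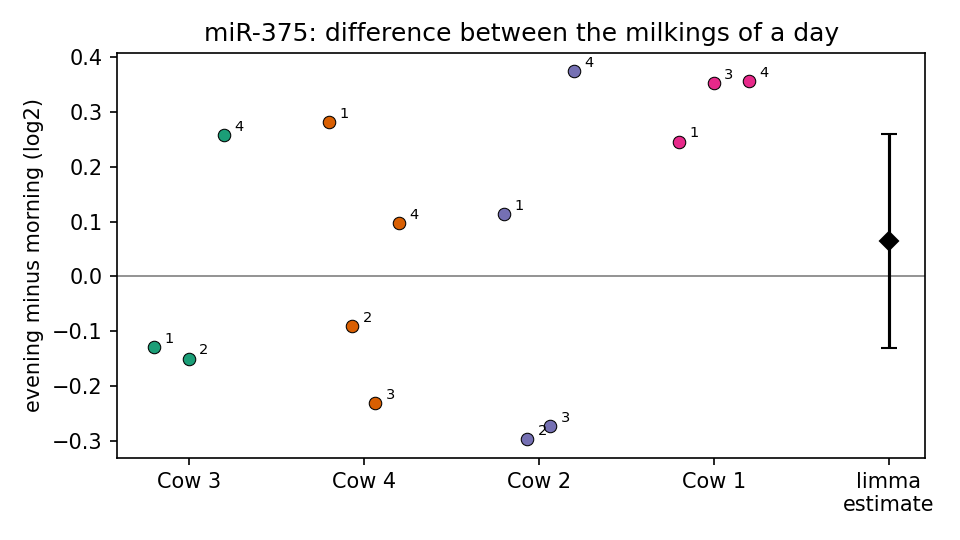
Difference of miR-375 between the evening and the morning library of the same cow and day (y axis, log2) for the 14 pairs, by cow (x axis), with the collection day beside each point. The diamond is the limma estimate with its 95% interval, 0.06 (-0.13 to 0.26). The 3 pairs of Cow 1 are all above 0, and the other cows have pairs on both sides.

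Over the collection days, miR-375 was highest on day 3. Its mean log2 CPM was 13.35 ± 0.37 on day 1 (n = 8), 13.45 ± 0.14 on day 2 (n = 6), 13.85 ± 0.51 on day 3 (n = 6) and 13.52 ± 0.39 on day 4 (n = 8, all SD). These raw means do not hold the same cows, so the days were compared with cow in the fit. The moderated F test over the 4 days gave miR-375 the smallest p-value of all 132 miRNAs (F = 7.75, unadjusted p = 0.000646), with an adjusted p of 0.0853. No miRNA passed that test (0 of 132, 0%) in limma or limma-voom, while 14 had an unadjusted p under 0.05. The scaling of the libraries moved this test of miR-375 in both directions. With library medians set equal it passed (F = 9.58, adjusted p = 0.0180), while F was 0.78 with quantile normalization (adjusted p = 0.812) and 1.29 as shares of reads (adjusted p = 0.782).

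The contrast of day 3 was chosen with earlier results of these data known, so its p-value is not independent evidence. miR-375 was 0.35 log2 units higher on day 3 than the mean of the other days (SE 0.09, 95% interval 0.16 to 0.54, limma, adjusted p = 0.0415), a 1.28-fold higher level with an interval of 1.12 to 1.46. It was 1 of 3 miRNAs that passed (2.27%), and the only one of them that was higher. The others were miR-2285bf, a member of a large bovine miRNA family (-1.12, adjusted p = 0.0415), and miR-374a (-0.69, adjusted p = 0.0415). In Cow 4, day 3 gave 13.35 and 13.58 log2 CPM in the evening and the morning, against 12.76 to 13.37 in its 6 libraries of other days. In Cow 2, day 3 gave 13.48 and 13.75, against 13.10 to 13.62 in 6. In Cow 1, day 3 gave 14.64 and 14.29, against 13.70 to 14.22 in 4. The mean on day 3 was higher in each of these 3 cows, by 0.33, 0.27 and 0.53 log2 units. The ranges did not overlap in Cow 1, and in Cow 4 and Cow 2 a single library of another day, the morning of day 2, lay above the lower day 3 value.

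This contrast was fragile. With the mean of both milkings of a cow and day as 1 value the estimate was the same (0.35), but the adjusted p was 0.520, and 0 miRNAs passed. With quantile normalization it was 0.12 (SE 0.09, adjusted p = 0.664). As shares of reads the difference was 0.45 in Cow 4, 0.03 in Cow 2 and 0.21 in Cow 1, and the call was lost (0.22 over all cows, adjusted p = 0.599). Leaving out 1 library at a time gave estimates of 0.30 to 0.40, and the call was lost without any one of 14 libraries. In Cow 3 these were the evening of day 2 (adjusted p = 0.0523) and the mornings of days 1 (0.0505) and 4 (0.0524). In Cow 4 they were the mornings of days 3 (0.0842) and 4 (0.0614). In Cow 2 they were the evenings of days 2 (0.0750) and 3 (0.0545) and the mornings of days 1 (0.0561), 2 (0.0538) and 3 (0.134). In Cow 1 they were the evening of day 3 (0.104) and the mornings of days 1 (0.0551), 3 (0.0565) and 4 (0.0818). Without both Cow 1 libraries of day 3 the estimate was 0.30 (adjusted p = 0.316).

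The SCC was also high on day 3 in Cow 2 and Cow 1. In Cow 2 it was 163000 to 300000 cells per mL on day 3, against 36000 to 89000 on the other days, a ratio of geometric means of 4.29. In Cow 1 it was 190000 to 297000, against 39000 to 79000, a ratio of 4.40. In Cow 4 it was 45000 to 47000 on day 3, against 18000 to 58000, a ratio of 1.06, and miR-375 was higher there on day 3 by 0.33 log2 units as well. With day 3 left out, the slope of miR-375 on log2 SCC within cows was 0.03 (SE 0.10, adjusted p = 0.995, 22 libraries), against 0.13 with day 3 included. High SCC and day 3 thus fell on the same milkings of Cow 2 and Cow 1 and cannot be told apart there.

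**Figure D4:**
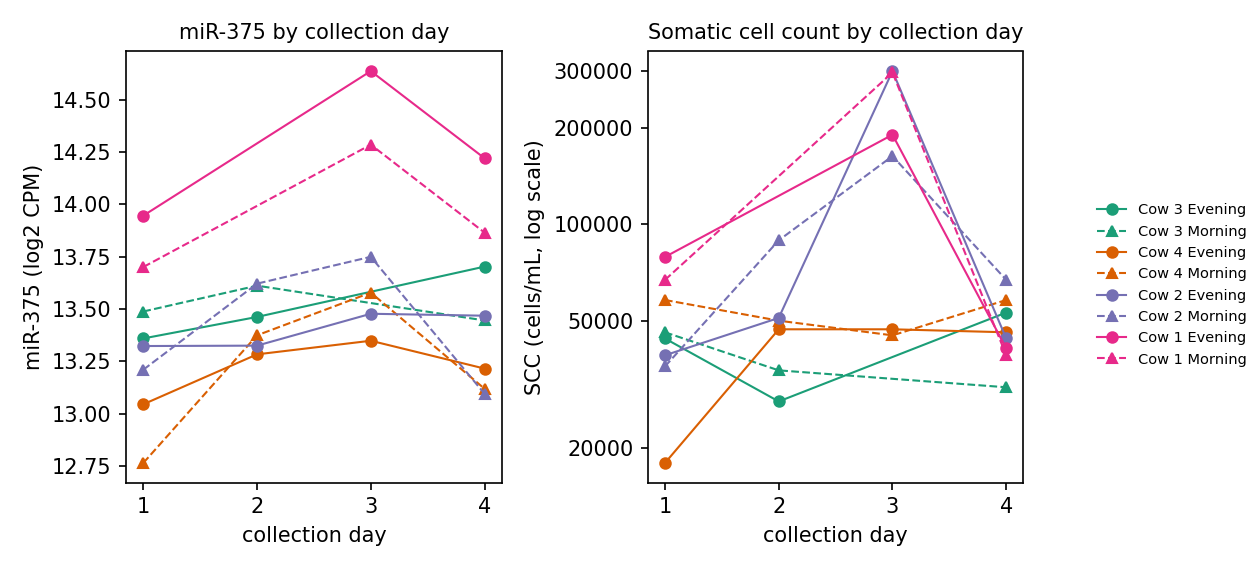
miR-375 in log2 CPM (left panel) and the SCC of the same milkings in cells per mL on a log scale (right panel) over the 4 collection days (x axes), with 1 line per cow and session, solid for evening and dashed for morning. Lines cross a day with no library in Cow 3 (day 3) and Cow 1 (day 2). On day 3 the SCC of Cow 2 and Cow 1 is between 163000 and 300000 cells per mL while that of Cow 4 is at most 47000, and miR-375 is above the mean of the other days in all 3.

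In the fit over all libraries that included cow, the slope of miR-375 on log2 SCC was 0.13 log2 units for each 2-fold step in SCC (SE 0.05, 95% interval 0.02 to 0.24, limma), with an unadjusted p of 0.0254 and an adjusted p of 0.240. On SCC, 3 miRNAs passed (2.27%), miR-2285bf (-0.57), miR-141 (-0.31) and miR-320a (0.27). The slope was smaller with quantile normalization (0.03, adjusted p = 0.854), as shares of reads (0.05, adjusted p = 0.722) and without both Cow 1 libraries of day 3 (0.08, adjusted p = 0.679), and larger relative to the miR-200 family (0.20, adjusted p = 0.0721). Within the pairs of the same cow and day, where only the session differs, the slope of miR-375 was -0.10 (adjusted p = 0.863), and 0 miRNAs passed. In 8 of the 14 pairs the milking with the higher SCC also had the higher miR-375. Of the 5 immune cell miRNAs none passed on SCC or on day 3, and of the miR-200 family miR-141 alone passed on SCC.

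The miRNA that varied most like miR-375 within cows was miR-92a, an abundant member of the miR-17-92 cluster. After the mean of each cow was removed, Pearson's r between them was 0.82 over the 28 libraries (Spearman's rho 0.85), the highest among 110 miRNAs with reads in every library. For those 110 the median r was 0.04, with a range of -0.63 to 0.82, and 62 were positive. All values of a library share its depth and its normalization, so these correlations are descriptions. Within cows, r with miR-92a was 0.28 (Cow 3), 0.73 (Cow 4), 0.93 (Cow 2) and 0.98 (Cow 1). It was 0.83 without the 2 libraries farthest from the median, 0.86 with library medians set equal, 0.83 as shares of reads and 0.69 for the 14 evening minus morning differences. The deviations from the cow mean ran from -0.45 to 0.53 log2 units in miR-375 and from -0.46 to 0.58 in miR-92a.

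The likeness did not extend to the levels of the cows. miR-92a averaged 14.65 ± 0.18 log2 CPM (Cow 3), 14.32 ± 0.19 (Cow 4), 13.70 ± 0.37 (Cow 2) and 14.02 ± 0.34 (Cow 1) (SD), and r over all libraries with cow means kept was 0.18. In Cow 3 miR-92a was 0.63 log2 units higher than in Cow 1 (adjusted p = 0.00444), where miR-375 was 0.60 lower. On day 3 the estimates were 0.35 for both, with an adjusted p of 0.0895 for miR-92a, and its slope on SCC was 0.18 (adjusted p = 0.0858).

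**Figure D5:**
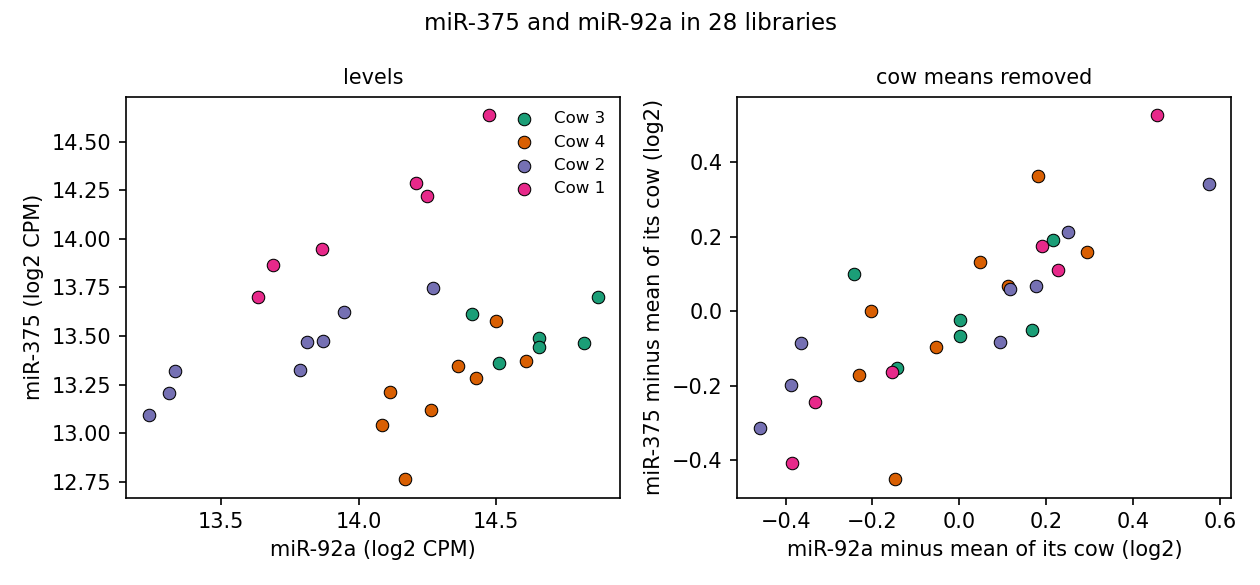
miR-375 against miR-92a in the 28 libraries, as levels in log2 CPM (left) and after the mean of each cow is removed from both (right, log2 units), with a colour for each cow. On the left the points of Cow 3 and Cow 4 overlap in part and r is 0.18. On the right the points rise together with r = 0.82, least so in Cow 3 (r = 0.28).

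The 7 miRNAs next to miR-92a in this order were miR-423-5p (r = 0.70), miR-92b (0.60), let-7c (0.53), miR-25 (0.51), miR-320a (0.50), miR-3596 (0.49) and miR-200c (0.48). miR-25 and miR-92b share the seed of miR-92a, so 3 of these 8 belong to 1 seed family, and in Cow 3 miR-25 was higher than in Cow 1 like miR-92a (0.50, adjusted p = 0.0362). The r of miR-25 was negative in Cow 4 (-0.40) and at least 0.67 in each other cow. miR-423-5p, next to miR-375 in level, was positive in each cow, from 0.66 in Cow 2 and Cow 3 to 0.89 in Cow 4. As shares of reads, 4 of the 8 were again among the highest 8, and the sign turned for let-7c (-0.15) and miR-3596 (-0.24), which had mean levels of 15.60 and 16.82 log2 CPM.

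At the other end were miR-30b-5p (r = -0.63), miR-29b (-0.57), miR-374a (-0.55), miR-141 (-0.54), miR-29c (-0.53), miR-186 (-0.50), miR-2285bf (-0.50) and miR-28 (-0.42). With library medians set equal 7 of these 8 stayed in that set, while as shares of reads 0 did, and their r then lay between -0.10 and 0.28. The negative end of the order thus depended on the scaling of the libraries, and the positive end depended on it in part. The median r of all 110 miRNAs moved as well, to 0.14 with equal medians and 0.22 as shares. Of the day 3 calls, miR-374a and miR-2285bf are in the negative set.

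On the deposited scale the marker lists differed in where they stood in the order of 110 miRNAs. In the miR-200 family, miR-200c held place 8, miR-200b 43, miR-429 99, miR-200a 100 and miR-141 107. The red blood cell miRNAs held places 80 (miR-15b), 85 (miR-16b) and 102 (miR-16a). Within cows the 5 miR-200 family members had r with miR-375 from -0.54 for miR-141 to 0.48 for miR-200c (median -0.38), though all are epithelial miRNAs. As shares of reads the r of all 5 was positive, from 0.14 for miR-141 to 0.65 for miR-200c, so the sign for miR-141, miR-200a and miR-429 depended on the scaling. The 2 miR-183 cluster members had 0.12 and 0.23, the 8 milk-abundant miRNAs -0.34 to 0.39, and 4 of the 5 immune cell miRNAs 0.05 to 0.19. The 3 red blood cell miRNAs had -0.41 to -0.20, 2 of the 3 stromal miRNAs -0.08 and 0.00, and miR-7 had -0.24. As shares of reads the red blood cell miRNAs had 0.11 to 0.22, both stromal miRNAs 0.42 and 0.47, and the 4 immune cell miRNAs 0.226 to 0.575. The miR-183 cluster members had 0.30 and 0.33, the milk-abundant miRNAs -0.486 to 0.595, and miR-7 had -0.01 on that scale. The median of all miRNAs was then 0.22, so positive values were not particular to the miR-200 family. The remaining immune cell and stromal miRNAs, miR-155 and miR-10b, had no reads in at least 1 library.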

How the data were processed

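The authors used Trim Galore! 0.4.3 on the reads of the 28 libraries, with PCR duplicates removed. Unique sequences were counted, filtered on CPM and annotated against the bovine entries of miRBase 22.1, and isomiRs were merged with their canonical form. The deposited values are log2 CPM, made by the authors with edgeR from effective library sizes. The genome build is not given in the sources used here. Removal of duplicates and grouping of isomiRs can both lower or merge the signal of abundant miRNAs.

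The deposited values were turned back into read counts. All 3696 values gave whole reads within 0.01, and 71 stood at 0 reads (3.55 on the log2 scale). The total per library was 101968 to 325211 reads (median 158620), and the linear CPM of a library summed to 740685 to 1438475. No 2 libraries held the same values.

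Because the unit is log2, limma 3.58.1 (R 4.3.3) was run on the deposited values of all 132 miRNAs, with a mean-variance trend, two-sided tests and Benjamini-Hochberg adjustment, and calls were made at an FDR of 0.05. The session, SCC and interaction fits had cow as a covariate. The day fit had cow as well, with no term for session. limma-voom on the recovered reads was an alternative, together with other scalings, filters, covariates and left-out samples. The fits were tested on simulated data.

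The labels pair the evening and the morning library of a cow and day. Residuals of such pairs correlated at 0.08 on average (6 of 14 pairs over 0.1), against -0.20 for libraries of the same cow from other days. The fit removed the mean of each cow, which by itself pushes correlations within a cow below 0, so the negative value does not show that days were unlike.

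Named were miR-375, the 3 miRNAs next above and below it in mean level, the 8 with the highest and the 8 with the lowest r with it within cows, and the members of the marker lists. miR-885 was outside this rule and was named after its values were seen. The members, lists and contrasts were chosen with earlier results of these data known. Gene names came from RefSeq, and 127 of 129 miRNA names matched a gene there. Correlations used numpy 2.4.6, scipy 1.17.1 and pandas 2.3.3 under Python 3.11.15, and matplotlib 3.10.9 made the plots. No miRNA sequences were used here.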

Additional observations from a re-analysis of the deposited data

How the results depend on the processing

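The session estimate kept its direction in 18 of 19 alternatives and was -0.0043 without Cow 1, and the slope on SCC was -0.10 with each cow and day as a replicate block. The differences of Cow 2 and Cow 4 from Cow 1 and the test among cows kept their calls in 15 of 16 alternatives each. With morning libraries alone they were -0.53, -0.74 and F = 3.94 and did not pass, and Cow 3 minus Cow 1 was -0.44. Cow 3 minus Cow 1 also missed the threshold with library medians set equal (-0.43) and as shares of reads (-0.32). Cow 3 minus Cow 4 passed with quantile normalization (0.28), as shares of reads (0.58) and with session and day in the fit (0.38). The test among days passed with library medians set equal (F = 9.58), on the 94 miRNAs with a mean log2 CPM of at least 7 (F = 8.68) and with summed reads as a covariate (F = 7.15). It fell to F = 0.78 with quantile normalization and F = 1.29 as shares of reads. The slope on SCC was 0.03 with day 3 left out and with quantile normalization.

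The day 3 estimate kept its sign but lost its call with no variance trend (0.35), quantile normalization (0.12), shares of reads (0.22), the miR-200 family as reference (0.41), the replicate block of paired milkings (0.35), evening libraries alone (0.26), morning libraries alone (0.44), Cow 3 left out (0.34), Cow 2 left out (0.40), Cow 1 left out (0.30), and both Cow 1 libraries of day 3 left out (0.30, an alternative chosen after the data were seen). Leaving out 1 library at a time gave 0.30 to 0.40. The cause was not tested. The replicate block changed no other call of miR-375. No other result changed its call in any fit without 1 library.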
